A study of Homo sapiens with 6 samples.

Results

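MYC and 41 genes of ribosome assembly in the nucleolus were followed in human cells labelled LNCaP. Cells given a vector to overexpress the long non-coding RNA LINC01518 were set against cells given an empty vector. The 42 genes were chosen by symbol as ribosome biogenesis and MYC-driven nucleolar genes. The choice used no cut on a measured value but was made with earlier results of these data known. All 42 were found among the 20263 genes of the count table and tested. Per the labels, RNA sequencing of total RNA gave 3 libraries of cells with the LINC01518 overexpression vector and 3 libraries of cells with the empty vector. LNCaP is an established line from human prostate cancer. No other treatment is labelled, both groups carry a vector, and the promoter of the vector is not given in the sources used here. The series description names MEG3 as the insert whereas the title and sample labels name LINC01518. The level of either RNA was not analysed here, so the overexpression itself was not checked and the groups are named as labelled.

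Ribosomes are made in the nucleolus, where RNA polymerase I transcribes one long precursor RNA. Small nucleolar RNA-protein particles (snoRNPs) modify this precursor, and large assemblies of scaffold proteins, helicases and GTPases fold and cut it into the small and the large ribosomal subunit. The transcription factor MYC binds the E-box, CACGTG, with its partner MAX and is known to drive many of these genes, which is why their transcripts are often read as a sign of growth. Prostate cancer cells commonly show enlarged nucleoli.

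The promoters of the members held the E-box more often than those of other genes, and most often at the start of transcription. Members were chosen in part as MYC-driven genes, so a high share of the MYC motif is not independent of that choice. RefSeq windows (build GRCh38.p14) of 250 bases before to 50 bases after the annotated start were matched for 34 members. NOLC1, NOP58, RRP12, RRP1B, DDX18, BOP1, RRS1 and MYC were not matched. The letters CACGTG, which read the same on both strands, were found for 18 of the 34 members (52.9%), against 12.6% of 10736 tested genes and 8.77% of all 27305 genes with a window. Within the 50 bases from the start the share was 35.3% for the members (12 of 34), against 1.57% of tested genes and 1.12% of all genes. In the 250 bases before the start it was 17.6% for the members, against 11.2% of tested genes. The looser letters CANNTG, which include CACGTG, were in 79.4% of member windows and 67.4% of those of tested genes. These letter matches are a description of the windows and not of MYC binding. The 30 bases around the motif are shown for the 8 members with the motif whose unadjusted p was under 0.05, and for FBL and PES1, whose levels hardly differed between groups. The motif is in capitals, the strand is that of the gene, and each position is that of the first base of the motif counted from the start.

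DDX21, position -31, chr10:68956604-68956633, plus strand: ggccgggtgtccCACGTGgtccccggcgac
NOL6, position 14, chr9:33473894-33473923, minus strand: ggcatttccgccCACGTGggaagctatgag
WDR43, position 4, chr2:28894658-28894687, plus strand: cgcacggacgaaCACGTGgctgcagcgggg
LYAR, position -64, chr4:4290068-4290097, minus strand: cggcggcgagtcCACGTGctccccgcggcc
GNL3, position 7, chr3:52686026-52686055, plus strand: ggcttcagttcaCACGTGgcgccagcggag
RRP9, position -5, chr3:51941892-51941921, minus strand: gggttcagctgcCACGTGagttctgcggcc
UTP20, position -10, chr12:101280083-101280112, plus strand: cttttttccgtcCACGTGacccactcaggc
UTP4, position -16, chr16:69132621-69132650, plus strand: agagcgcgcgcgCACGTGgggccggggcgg
FBL, position 7, chr19:39846356-39846385, minus strand: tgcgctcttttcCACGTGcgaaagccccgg
PES1, position 14, chr22:30591880-30591909, minus strand: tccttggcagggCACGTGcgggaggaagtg

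Of the 20 E-boxes found in member windows, 17 lay within 40 bases of the start, each in a different gene. The exceptions were the motif of LYAR and the more distant of a pair in IMP4 and in NOP10. The motifs lay between positions -203 and 36, as the plot of E-box positions shows.

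**Figure D1:**
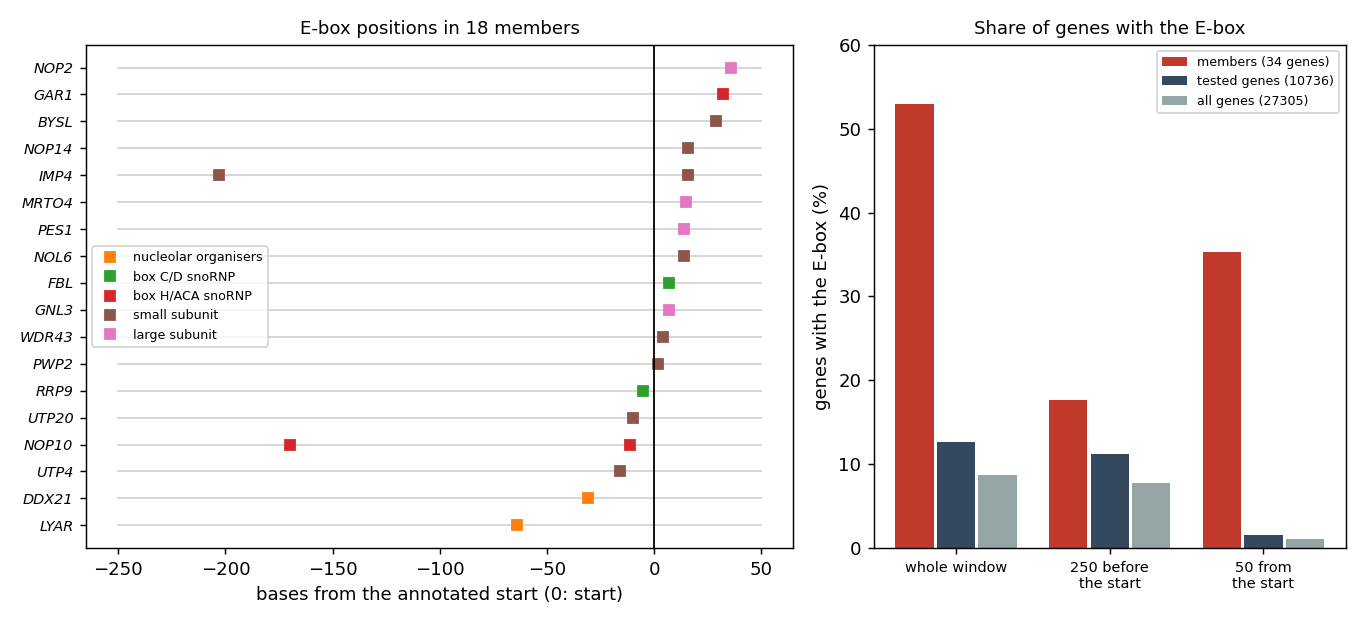
Left, position in bases from the annotated start (line at 0) of each E-box in the windows of the 18 members that hold one, 1 row per gene, coloured by role. Right, percentage of genes with the E-box in the whole window, in the 250 bases before the start and in the 50 bases from it; in the last the members reach 35.3% and all genes 1.12%.

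The libraries were deep and alike in size. Total counts were 38161544 to 42553688 in the overexpression libraries and 38541029 to 42229418 in the empty vector libraries. Counts were scaled to CPM (library-scaled counts, with trimmed-mean TMM factors). The floor was set at 3 counts, which were 0.0705 to 0.0786 CPM before TMM scaling. Whether the 3 libraries of a group are separate cultures is not labelled, and the spread behind each p-value may therefore be technical. In bulk RNA, fewer cells of a type and less RNA per cell cannot be told apart. Of the luminal prostate markers, KRT8, KRT18 and HOXB13 were present, whereas KLK2, KLK3, TMPRSS2 and FOLH1 had 0 counts in all 6 libraries, and STEAP2 had at most 4. The name LNCaP is that of the labels. The 0 counts of KLK2, KLK3, TMPRSS2 and FOLH1 go against a luminal prostate line, and the identity of the cells was not tested. KRT8 rose, with 1670 ± 46.2 CPM with overexpression and 1363 ± 62.1 CPM with empty vector (SD, n = 3 each). The summed level of the 10 listed luminal markers was 2720 to 2889 CPM with overexpression and 2256 to 2528 CPM with empty vector. Of 6 fibroblast markers 2 rose, COL1A1 and PDGFRB, and COL1A2 and LUM were at or under 3 counts in every library. The summed level of these 6 was 154 to 159 CPM with overexpression and 112 to 122 CPM with empty vector. The part of these marker differences in the results was not tested.

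With LINC01518 overexpression, 3 of the 42 members fell and 0 rose. They were WDR3 and the RNA helicase genes DDX21 and DDX18, whose fitted levels decreased by 18.1%, 15.5% and 13.4% in that order. Among all 13543 genes tested, edgeR's quasi-likelihood test called 2.03% lower and 3.57% higher at an adjusted p under 0.05, or 5.6% in either direction, so 3 of 42 members lower (7.14%) stands beside 2.03%. The other 39 members were not called. Their log2 fold changes, overexpression minus empty vector, were small. Over all 42 members the range was -0.36 to 0.18 and the median -0.08, beside a median of -0.0035 over all genes tested, and 31 of the 42 were negative (73.8%, beside 50.8%). At an unadjusted p under 0.05, 11 members were lower and 1, NHP2, was higher, beside 11.4% of all genes lower and 23.6% in either direction. The 3 libraries of each group did not overlap for 14 members that were lower with overexpression and 1 that was higher, 35.7% of members beside 31.4% of all genes. In the lower direction alone this was 33.3% beside 15.5%.

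The 95% interval of the log2 fold change lay inside a change of 1.5-fold either way for 39 of the 42 members. LYAR, RRP12 and PPAN were the exceptions, and only on the side of lower levels. By library, the members' median deviation from their own mean was -0.04, -0.07 and -0.03 in overexpression libraries 1, 2 and 3, against 0.06, 0.01 and 0.07 in empty vector libraries 1, 2 and 3, on the log2 CPM scale. The summed level of all 42 members was 5308, 5292 and 5572 CPM with overexpression, against 5853, 5512 and 5530.4 CPM with empty vector, and the groups overlapped. Without NPM1, the most abundant member, the sum was 4334, 4207 and 4433 CPM with overexpression, against 4765, 4488.5 and 4600 CPM with empty vector. That sum did not overlap between groups. By role, the sums overlapped for the nucleolar organisers (2289 to 2538 CPM with overexpression, against 2317 to 2672 CPM with empty vector), the box C/D genes (515 to 548 against 536 to 571 CPM), the box H/ACA genes (345 to 369.6 against 346 to 379.6 CPM) and RNA polymerase I (252 to 262 against 245 to 268 CPM). The sums of the small and large subunit genes did not overlap. In the deviations by library, overexpression library 2 was the lowest, with 7 of 42 members above their own mean. Without it the members' median log2 fold change was -0.06, and it lay between -0.08 and -0.11 without any other library.

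**Figure D2:**
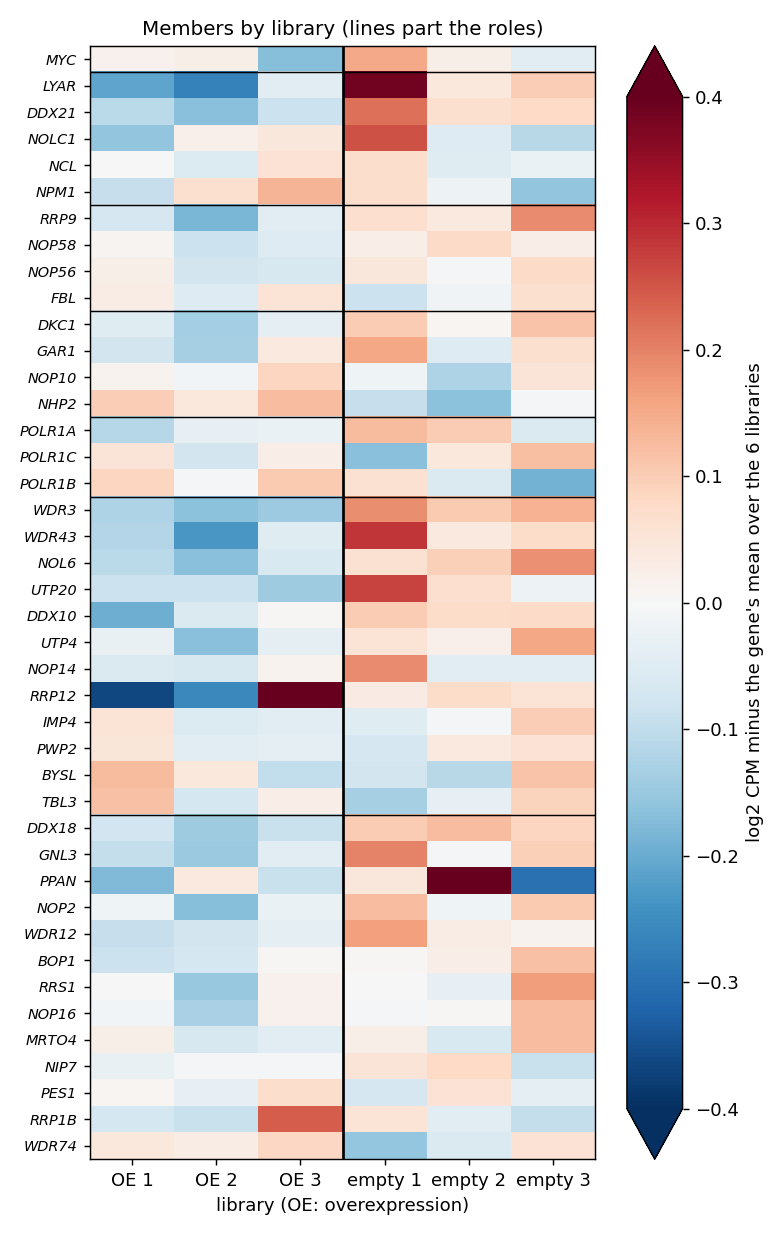
Heat map of the 42 members (rows, grouped by role) in the 3 overexpression and 3 empty vector libraries (columns); colour is log2 CPM minus the gene's mean over the 6 libraries. WDR3, DDX21 and DDX18 are below their mean in all 3 overexpression libraries and above it in all 3 empty vector libraries, while RRP12 and PPAN vary most within a group.

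**Figure D3:**
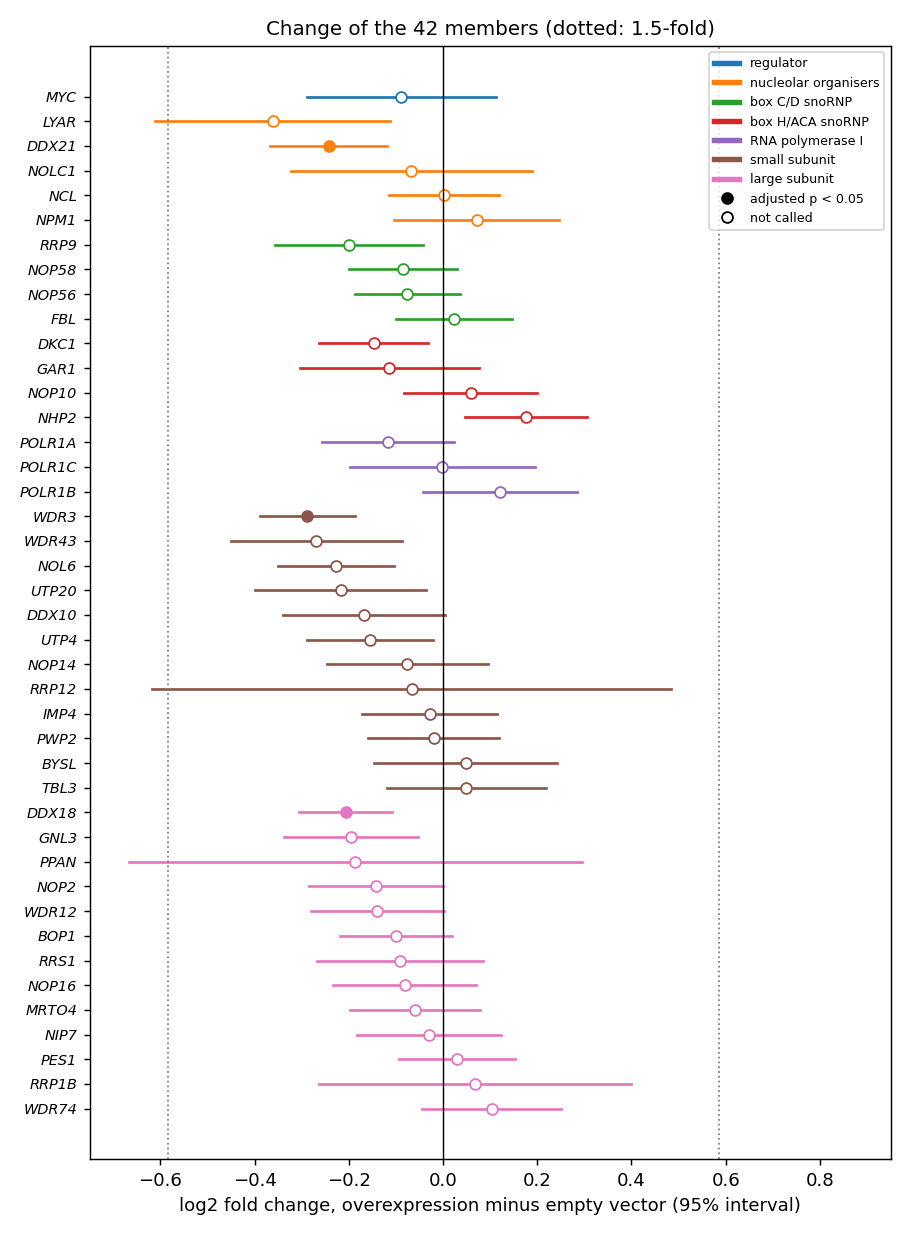
Log2 fold change, overexpression minus empty vector, of each member (points) with its 95% interval (lines), grouped by role; filled points passed an adjusted p under 0.05 and dotted lines mark 1.5-fold. The 3 filled points are WDR3 (-0.29), DDX21 (-0.24) and DDX18 (-0.21).

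MYC itself was not called. It had 22.9, 23.1 and 20.1 CPM with overexpression, against 25.3, 23.1 and 21.9 CPM with empty vector, so the groups overlapped. The log2 fold change was -0.09 with a 95% interval of -0.29 to 0.11 (edgeR adjusted p = 0.582). Its level per transcript length was 32.0 ± 1.51 TPM (a length- and depth-scaled level) with overexpression and 33.5 ± 3.28 TPM with empty vector (SD, n = 3 each), which ranked it 33 of the 42 members.

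Of the 5 genes that organise the nucleolus or its RNA, DDX21 fell (20%, beside 2.03% of all genes) and 4 were not called. DDX21 encodes a helicase that works with RNA polymerase I and with snoRNAs (chromosome 10, 68956128 to 68985073, GRCh38). It had 448, 431 and 455 CPM with overexpression, against 563, 505 and 510.4 CPM with empty vector. Empty vector library 1 was the highest and no library of the groups overlapped. The log2 fold change was -0.24 (SE 0.0537, 95% interval -0.37 to -0.12, edgeR adjusted p = 0.0424), and the adjusted p was 0.0589 to 0.133 without any 1 library. LYAR, which encodes a zinc finger protein of precursor RNA processing, showed the lowest fold change of all members but was not called. It had 24.5, 23.5 and 27.5 CPM with overexpression, against 37.3, 29.3 and 30.5 CPM with empty vector, a log2 fold change of -0.36 (edgeR adjusted p = 0.0935).

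NPM1, NCL and NOLC1, of the same role, were not called. NPM1, a histone chaperone and scaffold of the nucleolus and the most abundant member at 1346 ± 96.5 TPM with overexpression and 1316 ± 131 TPM with empty vector (SD, n = 3 each), had 974, 1084 and 1139 CPM with overexpression and 1089, 1024 and 931 CPM with empty vector. The groups overlapped (log2 fold change 0.07, interval -0.10 to 0.25). NCL, nucleolin, had a log2 fold change of 0.0018 with an interval of -0.12 to 0.12, from 491 ± 19.3 CPM with overexpression and 490.2 ± 21.7 CPM with empty vector (SD, n = 3 each). NOLC1, a snoRNP chaperone, ranged from 352 to 405 CPM with overexpression and from 364 to 468 CPM with empty vector, where library 1 stood highest.

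**Figure D4:**
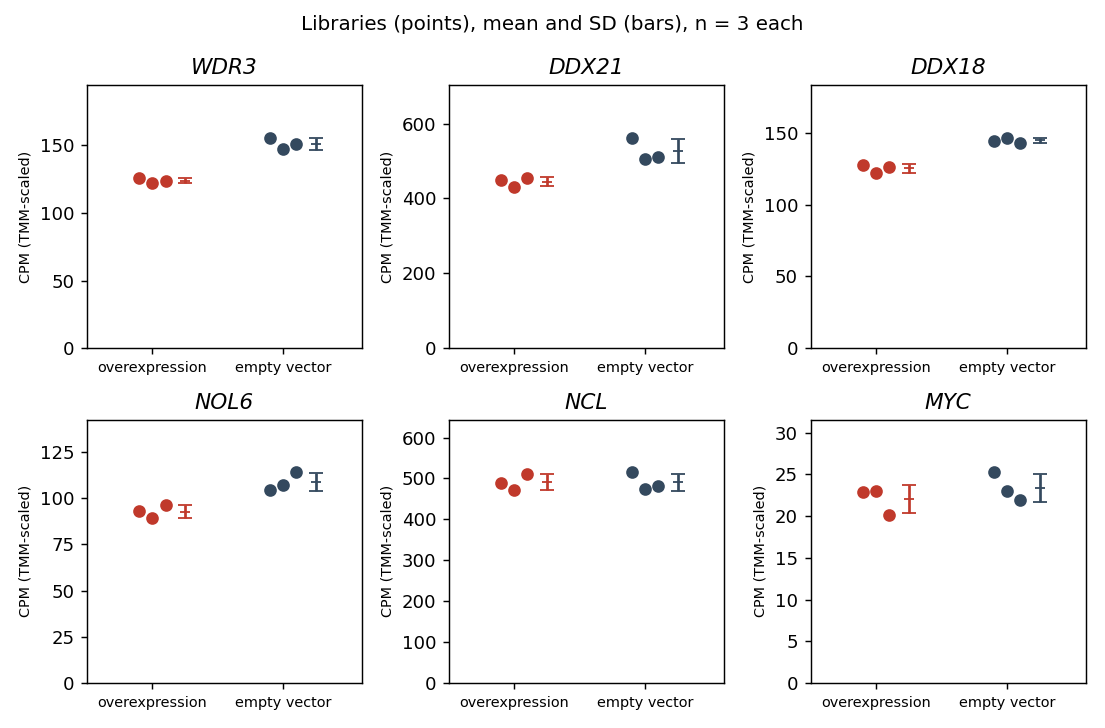
CPM of WDR3, DDX21, DDX18, NOL6, NCL and MYC in each library (points) with the group mean and SD (bars, n = 3 each); axes start at 0. The groups are apart for the first 4 genes, with WDR3 at 122 to 126 CPM against 147 to 156 CPM, and overlap for NCL and MYC.

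None of the 4 genes of box C/D snoRNPs, the particles that methylate ribosomal RNA, was called. FBL, fibrillarin, the methyltransferase of these particles, had 258, 244 and 262 CPM with overexpression, against 238, 250.2 and 264 CPM with empty vector (log2 fold change 0.02, interval -0.10 to 0.15). Its scaffold partners were slightly lower, NOP56 at -0.08 and NOP58 at -0.09. NOP58 had 77.1, 72.0 and 73.7 CPM with overexpression and 77.8, 80.6 and 77.9 CPM with empty vector, without overlap but with an adjusted p = 0.339 in edgeR. RRP9, which belongs to the snoRNP that starts the cutting of the small subunit RNA, had 45.0, 41.5 and 45.7 CPM with overexpression, against 49.4, 48.4 and 53.9 CPM with empty vector (log2 fold change -0.20, edgeR adjusted p = 0.131). Per length the 4 genes were unequal, with FBL at 521 ± 22.5 TPM with overexpression and 526 ± 16.5 TPM with empty vector, and NOP58 at 72.7 ± 1.57 and 80.3 ± 3.34 TPM in the same order (SD, n = 3 each).

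The 4 genes of box H/ACA snoRNPs, which turn uridines of ribosomal RNA into pseudouridine, pointed both ways and none was called. DKC1, dyskerin, the enzyme of the particle, had 175, 164 and 176 CPM with overexpression, against 194, 181 and 195 CPM with empty vector (log2 fold change -0.15, interval -0.26 to -0.03, edgeR adjusted p = 0.130). Its small partner NHP2 stood on the other side, with 91.0, 87.7 and 92.6 CPM with overexpression and 79.7, 75.8 and 84.7 CPM with empty vector (0.18, interval 0.05 to 0.31, edgeR adjusted p = 0.112). NHP2 and DKC1 were each free of overlap between groups, in opposite directions. NOP10, at 72.7, 71.4 and 76.4 CPM with overexpression and 71.1, 65.9 and 74.6 CPM with empty vector, overlapped, and GAR1, the remaining core protein, was at -0.11. Per length NOP10, NHP2, DKC1 and GAR1 averaged 257, 212, 143 and 36.8 TPM with overexpression and 254, 193, 164 and 41.3 TPM with empty vector. That order was the same in both groups.

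The 3 subunits of RNA polymerase I in the set were not called, and the groups overlapped for each. POLR1A, the catalytic subunit, had 117, 124 and 125 CPM with overexpression and 139, 136 and 122 CPM with empty vector (log2 fold change -0.12, interval -0.26 to 0.02). POLR1B, its partner in the catalytic core, had 92.7, 87.0 and 94.0 CPM with overexpression and 91.1, 83.9 and 76.5 CPM with empty vector (0.12, interval -0.04 to 0.29). POLR1C, a subunit shared with RNA polymerase III, had 44.0, 40.2 and 43.1 CPM with overexpression and 37.7, 43.6 and 46.1 CPM with empty vector, a log2 fold change of -0.0015 (interval -0.20 to 0.19).

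**Figure D5:**
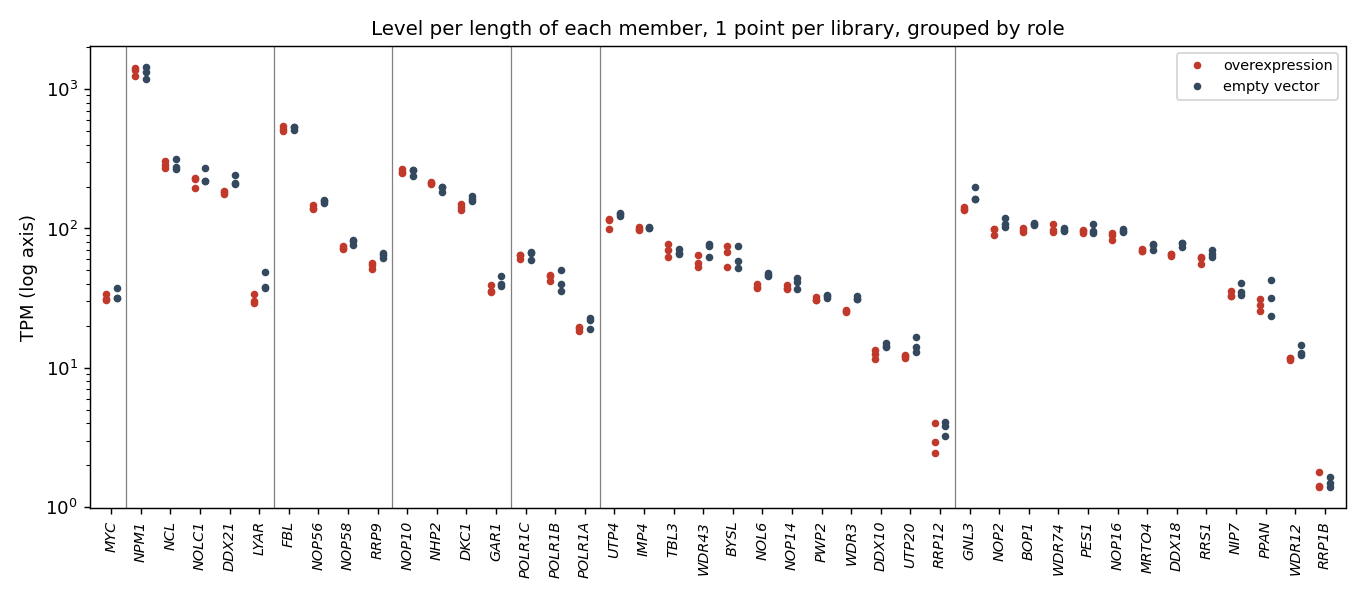
TPM of each member on a log axis, 1 point per library, grouped by role and ordered by level, with overexpression left of empty vector for each gene. NPM1 is highest and RRP1B lowest, and the differences between genes are far wider than those between groups.

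Of the 12 small subunit genes, WDR3 fell (8.33%, beside 2.03% of all genes) and 11 were not called. A negative log2 fold change was found for 10 of the 12 (83.3%, beside 50.8% of all genes). WDR3 is a WD-repeat scaffold of the early small subunit particle (chromosome 1, 117929720 to 117966542, GRCh38). It had 126, 122 and 124 CPM with overexpression, against 156, 147 and 151 CPM with empty vector. Every overexpression library was below every empty vector library, with a log2 fold change of -0.29 (SE 0.0437, 95% interval -0.39 to -0.19, edgeR adjusted p = 0.0140). The call was kept without 4 of the 6 libraries in turn and lost without overexpression library 2 (adjusted p = 0.0555) or 3 (0.0620). PWP2 and TBL3, WD-repeat proteins of the same subcomplex as WDR3, were at -0.02 (interval -0.16 to 0.12) and 0.05 (-0.12 to 0.22). PWP2 averaged 52.4 ± 1.89 CPM with overexpression and 53.1 ± 2.47 CPM with empty vector (SD, n = 3 each).

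NOL6, another early small subunit factor, lay at the edge of the threshold. It had 93.0, 89.3 and 96.1 CPM with overexpression, against 105, 107 and 114 CPM with empty vector, without overlap (log2 fold change -0.23, interval -0.35 to -0.10, edgeR adjusted p = 0.0502). NOL6 passed in 6 of the alternative fits, with an adjusted p of 0.0135 in DESeq2. UTP4, which joins the subcomplex closest to transcription, had 132, 119.9 and 131 CPM with overexpression, against 140.1, 137 and 150.01 CPM with empty vector (-0.15, edgeR adjusted p = 0.161). WDR43 of that subcomplex was at -0.27 (edgeR adjusted p = 0.0909), with 95.9 ± 6.20 CPM with overexpression and 116 ± 11.03 CPM with empty vector (SD, n = 3 each). The long scaffold gene UTP20 was at -0.22 and the helicase gene DDX10 at -0.17. BYSL (bystin), NOP14 and IMP4, all needed to build the small subunit, were between -0.08 and 0.05. RRP12, an export factor of the small subunit, had only 163 to 275 counts per library. It had 3.88, 4.22 and 7.28 CPM with overexpression, against 5.27, 5.44 and 5.37 CPM with empty vector, and overexpression library 3 alone was high. The summed level of the 12 genes was 871, 822 and 863 CPM with overexpression, against 954, 914 and 958 CPM with empty vector, and the groups did not overlap.

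Of the 13 large subunit genes, DDX18 fell (7.69%, beside 2.03% of all genes) and 12 were not called. A negative log2 fold change was found for 10 of the 13 (76.9%, beside 50.8% of all genes). DDX18 encodes a DEAD-box helicase of early large subunit assembly (chromosome 2, 117814650 to 117832379, GRCh38). It had 128, 122 and 126 CPM with overexpression, against 144, 147 and 143 CPM with empty vector, without overlap. The log2 fold change was -0.21 (SE 0.0428, 95% interval -0.31 to -0.11, edgeR adjusted p = 0.0347), and the adjusted p was 0.0589 to 0.120 without any 1 library. GNL3, nucleostemin, a GTPase gene, had 119, 115 and 123 CPM with overexpression, against 146, 127 and 136 CPM with empty vector (-0.20, edgeR adjusted p = 0.107). It was also the most abundant of the 13 per length, at 139 ± 3.97 TPM with overexpression and 175 ± 20.7 TPM with empty vector (SD, n = 3 each).

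PES1, BOP1 and WDR12 form a trimer needed for the large subunit. PES1 was at 0.03 (interval -0.09 to 0.15), BOP1 at -0.10 (-0.22 to 0.02) and WDR12 at -0.14 (-0.28 to 0.00), and none was called. Their levels per length were 95.5, 97.6 and 11.6 TPM with overexpression and 99.4, 108 and 13.2 TPM with empty vector, so the transcript of WDR12 was much the scarcest. NOP2, a methyltransferase of ribosomal RNA, was at -0.14, and NOP16, RRS1, MRTO4 and NIP7, further assembly factors of the large subunit, were between -0.09 and -0.03. WDR74, which works with an ATPase of late nucleolar steps, was at 0.10. RRP1B, a nucleolar protein that also binds chromatin, was at 0.07 with 142 to 180 counts per library and was the lowest member per length. The summed level of the 13 genes was 962, 926 and 980.4 CPM with overexpression, against 1028, 1010.0 and 1039 CPM with empty vector, without overlap.

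PPAN varied most among the empty vector libraries, and a neighbouring annotation shares its exons. PPAN had 834, 910 and 798 counts with overexpression, against 951, 1344 and 705 with empty vector. The readthrough gene PPAN-P2RY11, which overlaps the whole of PPAN on the same strand, had 1309, 1100.0 and 1143 counts with overexpression, against 1342, 982 and 1217 with empty vector. Empty vector library 2 was the highest for PPAN and the lowest for PPAN-P2RY11. Summed over both genes the level was 51.0, 51.1 and 51.4 CPM with overexpression, against 56.0, 54.5 and 49.6 CPM with empty vector, far steadier than PPAN alone.

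Several members carry small nucleolar RNAs in their own gene bodies. In GENCODE release 29, 7 members hold 25 annotated snoRNA genes on their own strand. They are NCL, NOP56, NOP58, DKC1, WDR43, GNL3 and PPAN, and none of the 7 was called. The log2 fold changes of these hosts lay between -0.27 (WDR43) and 0.0018 (NCL). The strand setting of the counting is not given in the sources used here, and 13 members overlap a counted coding gene on the opposite strand, WDR3 among them, whose partner SPAG17 had 0 to 5 counts per library.

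The members were then divided by the E-box. DDX18, which also fell, had no matched window and is in neither part. Of the 18 members with CACGTG, 1 fell (DDX21) and the median log2 fold change was -0.13. Of the 16 with a window but no CACGTG, 1 fell (WDR3) and the median was -0.05. Of all genes tested 2.03% fell. At an unadjusted p under 0.05 there were 8 of 18 members with the motif, all lower. Without it there were 3 of 16, WDR3 and DKC1 lower and NHP2 higher. In either direction these stand beside 24.6% of all tested genes with the motif and 23.7% of those without it. In the lower direction the share of all genes was 11.4%. Over all genes tested the medians were 0.0065 with the motif and -0.0049 without it.

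The transcripts of the 3 members that fell were low in G and C. The longest GENCODE transcripts of WDR3, DDX18 and DDX21 were 39.5%, 40.5% and 41.1% G and C, all among the 2706 tested genes with the lowest GC content (30.2% to 41.2%). These genes had a median log2 fold change of -0.09, against 0.06 in the 2706 with the highest, and the 6 members among them had a median of -0.22. Spearman's rho between GC content and log2 fold change was 0.25 across 13529 genes and 0.35 across the 42 members, a description over genes that share the same libraries. In a fit that corrects each library for GC content and length, chosen after the data were seen, WDR3 (-0.22, edgeR adjusted p = 0.0476) and DDX21 (-0.19, 0.0415) were called and DDX18 was not (-0.15, 0.0937), where 2.49% of all genes were called lower and 6.68% in either direction. NOL6 was called there (-0.27, 0.0335), 34 of 42 members were negative and the members' median was -0.10.

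Other genes of ribosome assembly were listed from general knowledge of the pathway, with earlier results of these data known, so their shares are description only. The same holds for the lists that follow. Of 36 further small subunit genes 0 were called by edgeR, with 14 at an unadjusted p under 0.05, all lower (38.9%, beside 11.4% of all genes lower), and a median log2 fold change of -0.13. DESeq2 called 5 of the 36 lower, where it called 3.93% of all genes lower. Limma-voom and limma-trend on TPM each called 0 of them. HEATR1, a scaffold of that particle, had the smallest p of them, at -0.19 (edgeR adjusted p = 0.0606; 0.0234 in DESeq2). Of 47 further large subunit genes 3 fell (6.38%, beside 2.03% of all genes), NIFK, RSL24D1 and PAK1IP1, and DDX54, a helicase gene, rose, with a median of -0.12. NIFK, whose protein binds the proliferation marker Ki-67, had 45.3, 43.1 and 44.6 CPM with overexpression, against 54.4, 58.9 and 60.4 CPM with empty vector (-0.38, edgeR adjusted p = 0.0157). Without overexpression library 1, 2 or 3 or empty vector library 2 the call of NIFK was lost (adjusted p = 0.0538, 0.0582, 0.0633 and 0.0600). DDX54 had 165, 165 and 167 CPM with overexpression, against 137, 144 and 138 CPM with empty vector (0.25, edgeR adjusted p = 0.0209), a call lost without overexpression library 1, 2 or 3 (adjusted p = 0.0731, 0.0701 and 0.0905). RSL24D1 and PAK1IP1 were at -0.22 and -0.32 and were called in 0 of the 6 fits without 1 library. With the GC and length correction both lost their calls (edgeR adjusted p = 0.174 and 0.0522), while NIFK and DDX54 kept theirs (0.0227 and 0.0171). DESeq2 called 6 of the 47 lower and 1 higher, beside 3.93% of all genes lower and 9.72% in either direction. Limma-voom called 1 lower and 1 higher, beside 1.69% lower and 4.6% in either direction. Limma-trend on TPM called 1 of 46 lower and 0 higher, beside 1.05% lower and 1.88% in either direction.

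Of 13 other subunits and factors of RNA polymerase I, 2 fell (15.4%, beside 2.03% of all genes), TAF1A and TAF1D. Both belong to the factor that brings the polymerase to its promoter, whose other listed members TAF1B (-0.20, edgeR adjusted p = 0.245) and TAF1C (0.26, 0.243) were not called. TAF1A had 9.91, 10.6 and 9.63 CPM with overexpression, against 13.2, 14.5 and 12.8 CPM with empty vector (-0.43, edgeR adjusted p = 0.0341). TAF1D was at -0.30 (edgeR adjusted p = 0.0417), and both calls were lost in each fit without 1 library, with the list's median at -0.14. Of 21 genes of RNA polymerase III and its factors 0 were called by edgeR, with a median of 0.01. At an unadjusted p under 0.05 there were 5 (23.8%, beside 23.6% of all genes). DESeq2 and limma-trend on TPM each called 1, POLR3G, beside 3.93% and 1.05% of all genes lower, and limma-voom called 0. POLR3G, an alternative subunit of that polymerase, had the widest difference of the genes named here without a call. It had 9.33, 8.74 and 5.48 CPM with overexpression, against 17.1, 12.6 and 15.3 CPM with empty vector (-0.93, edgeR adjusted p = 0.0600; 4.37e-04 in DESeq2). Of 15 genes of the RNA exosome, which trims the precursor RNA, 0 were called by edgeR, with a median of -0.03. At an unadjusted p under 0.05 there were 2 (13.3%, beside 23.6% of all genes), and DIS3 had the smallest p, at -0.20. DESeq2 called 1 of the 15 lower, beside 3.93% of all genes, limma-voom 0 and limma-trend on TPM 0.

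In the network around MYC 2 of 19 genes tested were called (10.53%, beside 5.6% of all genes): MXD4, a repressor that competes for MAX, rose and MLXIPL, a glucose-sensing relative, fell (median 0.02). MXD4 had 98.3, 88.3 and 93.4 CPM with overexpression, against 74.0, 74.96 and 78.3 CPM with empty vector (0.30, edgeR adjusted p = 0.0263), without overlap. Leaving out 1 library at a time, MXD4 was called in 2 of 6 fits, those without overexpression library 2 (adjusted p = 0.0458) or empty vector library 3 (0.0429), and had an adjusted p of 0.0671 to 0.0914 in the other 4. MLXIPL (-0.36, edgeR adjusted p = 0.0293) was called in 0 of the 6. Of 21 MYC-induced genes outside the nucleolus 0 were called by edgeR, with a median of 0.04. At an unadjusted p under 0.05 there were 4 (19.0%, beside 23.6% of all genes). DESeq2, which called 3.93% of all genes lower, called 1 of the 21 lower, limma-voom 0 and limma-trend on TPM 0. ODC1, the polyamine synthesis gene, had the smallest p, with 83.3 ± 2.13 CPM with overexpression and 100.003 ± 8.52 CPM with empty vector (SD, n = 3 each; -0.26, edgeR adjusted p = 0.0630). Of 5 genes that MYC represses, 2 were called (40%, beside 5.6% of all genes). CDKN2B fell to 24.1 ± 1.70 CPM with overexpression, against 35.9 ± 1.92 CPM with empty vector (-0.58, edgeR adjusted p = 0.00977), and NDRG1 rose (0.34, edgeR adjusted p = 0.0330). The call of CDKN2B was kept in all 6 fits without 1 library and that of NDRG1 in 0 of them.

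On the deposited TPM, limma-trend on log2(TPM + 1) called 0 of the 42 members, with 17 at an unadjusted p under 0.05, where it called 1.05% of 12329 genes lower and 1.88% in either direction. The log2 fold changes on that scale were -0.30 for WDR3, -0.28 for DDX21 and -0.24 for DDX18, with adjusted p from limma of 0.0513, 0.0763 and 0.0629. DESeq2 called 6 members lower, WDR3, DDX21, DDX18, NOL6, WDR43 and LYAR, where it called 3.93% of genes lower and 9.72% in either direction. Limma-voom called 2, WDR3 and DDX18, with 1.69% of genes lower and 4.6% in either direction, and gave DDX21 an adjusted p of 0.0527.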

How the data were processed

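Per the submitters' processing notes, reads were handled with Trimmomatic 0.36, HISAT2, featureCounts of Subread 1.5.1 and DESeq on build GRCh38. The counts per gene deposited by the authors are whole and were not normalized. The TPM were deposited by the authors, and the tool that made them is not given in the sources used here, nor are the annotation release and strand setting. Symbols came from a gene name table (20148 of 20263 genes) and positions from GENCODE release 29, and 0 columns were unmatched.

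Counts were tested in R 4.3.3 with edgeR 4.0.16: filterByExpr (minimum count 10, minimum total 15), TMM scaling, a robust quasi-likelihood fit with group as its only term on all 6 libraries, and Benjamini-Hochberg adjustment over 13543 genes, called under 0.05. The SE was the size of the log2 fold change divided by the square root of F, and 95% intervals used its t quantile. DESeq2 1.42.0 and limma 3.58.1 gave alternatives. Depth was 38161544 to 42553688 counts per library.

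The members and the gene lists were chosen with earlier results of these data known. All members are named. Values per library were given for MYC, called members, the 2 with the smallest p and the most abundant of each role, and in other lists for called genes (at most 5) or the gene with the smallest p. Values per library of a few further genes were added after values were seen. The tests were tried on simulated data, where edgeR recovered 20% of 50 genes changed 1.25-fold and 66% of 50 changed 1.5-fold. A member without a call may therefore still differ by a small amount. A promoter was matched by symbol for 34 members. Some luminal markers are not reported here.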

Additional observations from a re-analysis of the deposited data

How the results depend on the processing

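Over all genes, edgeR's 759 calls became 1316 with DESeq2, 232 and 224 with limma-trend on log2(TPM + 1) and log2(TPM + 0.1), 138 without a TPM filter, and 193 to 458 without 1 library. The members called lower, 3 in edgeR, were 6 with DESeq2, 0 in each of the 3 TPM fits and 0 to 1 without 1 library, and 0 members were called higher in any fit. Calls in the other lists, 10 in edgeR, were 21 with DESeq2, 3, 3 and 2 in the TPM fits and 1 to 7 without 1 library. With the replicate block, 232 of 13543 genes, 1 member (WDR3) and 2 genes of the other lists were called. Whether same-numbered libraries share a culture or a batch is not labelled. Each library correlated best with that of its own number in the other group, but only weakly. The r values were 0.0367 to 0.0547 for these pairs and -0.0645 to 0.0189 for the others, all near 0. Whether they reflect pairing was not tested. With library size only, 346 genes were called higher and 382 lower, and on log2(TPM + 1) 103 and 129, against 484 and 275 in edgeR. Members with CACGTG were 18 in the whole window, 6 in the 250 bases before the start and 5 in the 100 bases before it. The cause of these differences was not tested.

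In some alternatives the sign of a member turned. NCL was at -0.0079 with upper-quartile scaling, -0.030 with library size only and -0.00062 with 50 counts in 3 libraries. FBL was at -0.0093 with library size only, -0.014 in the 3 TPM fits and -0.025 with the GC and length correction. PES1 was at -0.0019 with library size only, -0.054, -0.055 and -0.054 in the TPM fits and -0.0030 with the GC and length correction. POLR1C was at 0.0036 with limma-voom, 0.0023 with the replicate block and 0.019 with the GC and length correction, where NOP10 was at -0.022 and TBL3 at -0.0054. Without 1 library the lowest and highest values were -0.027 and 0.036 for NCL, -0.14 and 0.051 for NOLC1, -0.016 and 0.061 for FBL, -0.082 and 0.061 for POLR1C, -0.0053 and 0.11 for TBL3, -0.060 and 0.0036 for PWP2, -0.065 and 0.014 for IMP4, -0.12 and 0.0038 for NOP14, -0.0065 and 0.12 for BYSL, -0.40 and 0.10 for RRP12, -0.36 and 0.044 for PPAN, -0.079 and 0.0032 for NIP7, and -0.060 and 0.13 for RRP1B.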
